A study of Saccharomyces cerevisiae with 4 samples.

Results

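The RNA of a yeast strain lacking SIR2 was set against that of a strain lacking SIR3 gene by gene, with no reference to the wild type. The members were all 5449 genes of Saccharomyces cerevisiae that could be named on the array, and each value is the log2 level in the SIR2 deletion minus the log2 level in the SIR3 deletion. The series holds 4 arrays of total RNA, 1 for each strain: a SIR2 deletion, a SIR3 deletion, a SIR4 deletion and the wild type, which is BY4742, a strain of the alpha mating type. Per the labels, KanMX replaced each deleted gene through homologous recombination, and every culture was 5 ml of the rich glucose medium YPD, kept at 30 °C until a density of 0.7 in exponential phase. Only the wild type is labelled with a strain name, and nothing in the labels says how many clones of a deletion were grown. Wild type and the SIR4 deletion were not used as a reference here, and their levels are given beside the pair to show where each array lay. With 1 array a side no test was possible, no difference has a replicate check, and a gene was called where it differed at least 2-fold, that is by at least 1 on the log2 scale. Precision is limited by there being 1 array a strain.

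Sir2, Sir3 and Sir4 form the complex that silences the hidden mating loci HML and HMR and genes next to telomeres. Sir2 is the enzyme of the complex, a deacetylase of histones that consumes NAD, while Sir3 is a structural protein that binds nucleosomes. Sir2 also acts in the nucleolus, in another complex that lacks Sir3 and silences the ribosomal DNA. Loss of either protein opens HML and HMR, so that a haploid cell expresses the genes of both mating types and takes on features of a diploid.

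Most genes had close to the same level in both strains. Of the 5449 genes, 3830 or 70.3% differed by at most 0.25, and the median difference was 0.00. The 5th and 95th percentiles of the differences were -0.40 and 0.47. At the 2-fold limit 44 genes were higher in the SIR2 deletion, which is 0.807% of all genes, and 13 were lower, which is 0.239%, together 57 genes or 1.05%. Counts of called list members given below are to be read beside these shares. The same limit called 90 genes between the SIR2 and SIR4 deletions and 69 between the SIR3 and SIR4 deletions, which are pairs that share arrays with this one. Across the 16 chromosomes, the median difference ran from -0.01 on chromosome IV to 0.07 on chromosome I.

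The arrays also carry 1746 probe sets of another yeast species, whose differences had an SD of 0.21 over probe sets, with none past 2-fold. The background level, taken as their 95th percentile, was 4.32 in the SIR2 deletion and 4.39 in the SIR3 deletion. The spread over genes also depended on level. With the genes cut into 10 equal classes by their mean level over the 4 arrays, the lowest class had an SD of 0.40 and a median of 0.13, and the highest an SD of 0.13 and a median of 0.00. Of the 47 genes with several probe sets, the median gap between the differences of 1 gene was 0.07, and in 4 genes (TPO2, YLR157W-E, YNL034W and YOL166W-A) the probe sets fell on different sides of the limit. In a culture measured in bulk, a change in the share of cells that express a gene and a change in RNA per cell cannot be told apart.

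**Figure D1:**
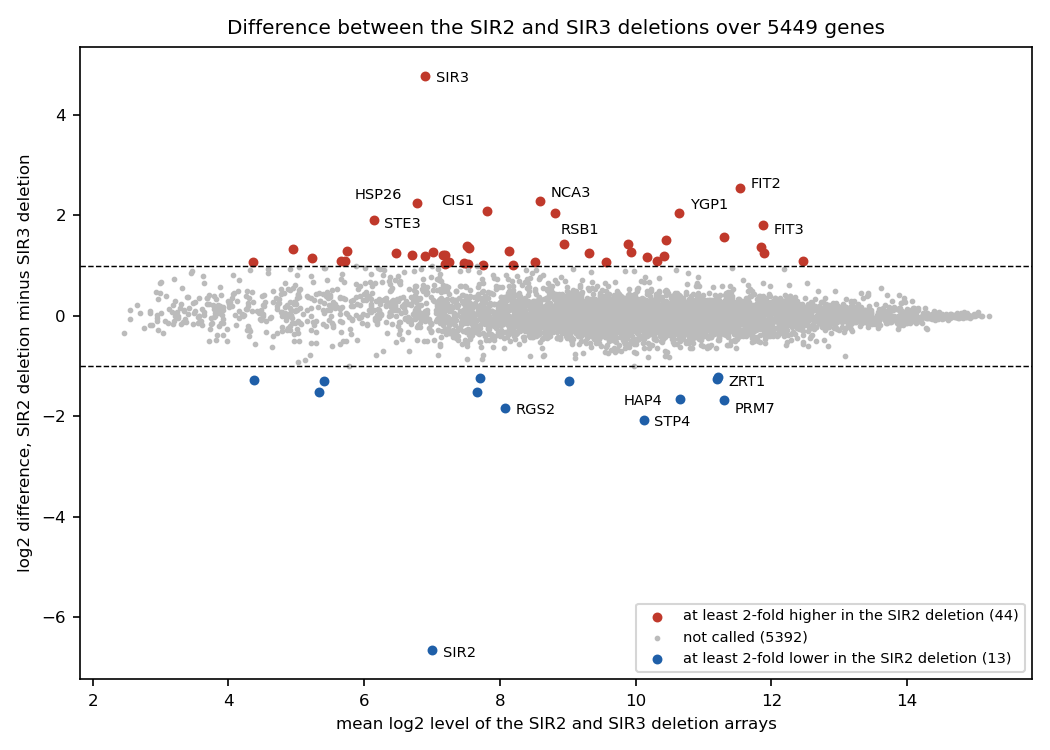
Each point is 1 gene, with the mean log2 level of the SIR2 and SIR3 deletion arrays on the x axis and the log2 difference, SIR2 deletion minus SIR3 deletion, on the y axis. Red points are the 44 genes at least 2-fold higher in the SIR2 deletion, blue points the 13 at least 2-fold lower, and dashed lines mark the limit.

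The deleted genes were the largest differences in either direction. SIR2 was at 3.68 in the SIR2 deletion, below background, against 10.34 in the SIR3 deletion, with 9.81 in the SIR4 deletion and 9.96 in wild type, and was at least 64.6-fold lower in the SIR2 deletion. SIR3 was at 9.29 in the SIR2 deletion against 4.51 in the SIR3 deletion, a difference of 4.78 or 27.4-fold. The SIR3 value of 4.51 was just above the background of 4.39 on that array. Both labels were thus matched by a transcript below or close to background. SIR4 was present in both strains, at 9.78 in the SIR2 deletion, beside 9.91 in the SIR3 deletion. Without the 2 deleted genes, 43 genes were higher and 12 lower.

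The genes beside the deleted loci were examined because each locus had been replaced. None of the 5 nearest measured genes on either side of SIR3 was called, with RPS1A at -0.01 and ECM7 at 0.34. Beside SIR2, 9 of 10 were not called, with PRP11 at -0.39 and NAT1 at -0.02. The exception was PRM7, a gene for a pheromone-regulated membrane protein that lies next to NAT1. It was at 10.46 in the SIR2 deletion against 12.15 in the SIR3 deletion, with 12.61 in the SIR4 deletion and 12.22 in wild type, so that only the array of the SIR2 deletion was low. Its second probe set gave -2.08, beside -1.69 for the brighter one. The part of the change made at the SIR2 locus in this value was not tested.

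The other arrays showed on which side of the pair a called gene stood out. Of the 44 higher genes, 9 were above all 3 other arrays by at least 1 in the SIR2 deletion: APE1, CIT2, GPM2, PTR2, RSB1, TMA10, TSL1, YHR140W and YLR108C. Another 10 lay below all 3 other arrays by at least 1 in the SIR3 deletion, namely SIR3 itself, ARN2, CIS1, FIT2, HUG1, STE3, TIR1, TIS11, YAR068W and YGP1. In the remaining 25 neither array stood apart by that much. Of the 13 lower genes, 6 were low by at least 1 in the SIR2 deletion alone (ARG1, PRM7, SET6, SIR2, YNL034W and ZRT1), and 5 were high by at least 1 in the SIR3 deletion alone (ECM13, HAP4, SLD7, STP4 and YML003W). The remaining 2, RGS2 and GAT2, did not stand apart by that much on either side.

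**Figure D2:**
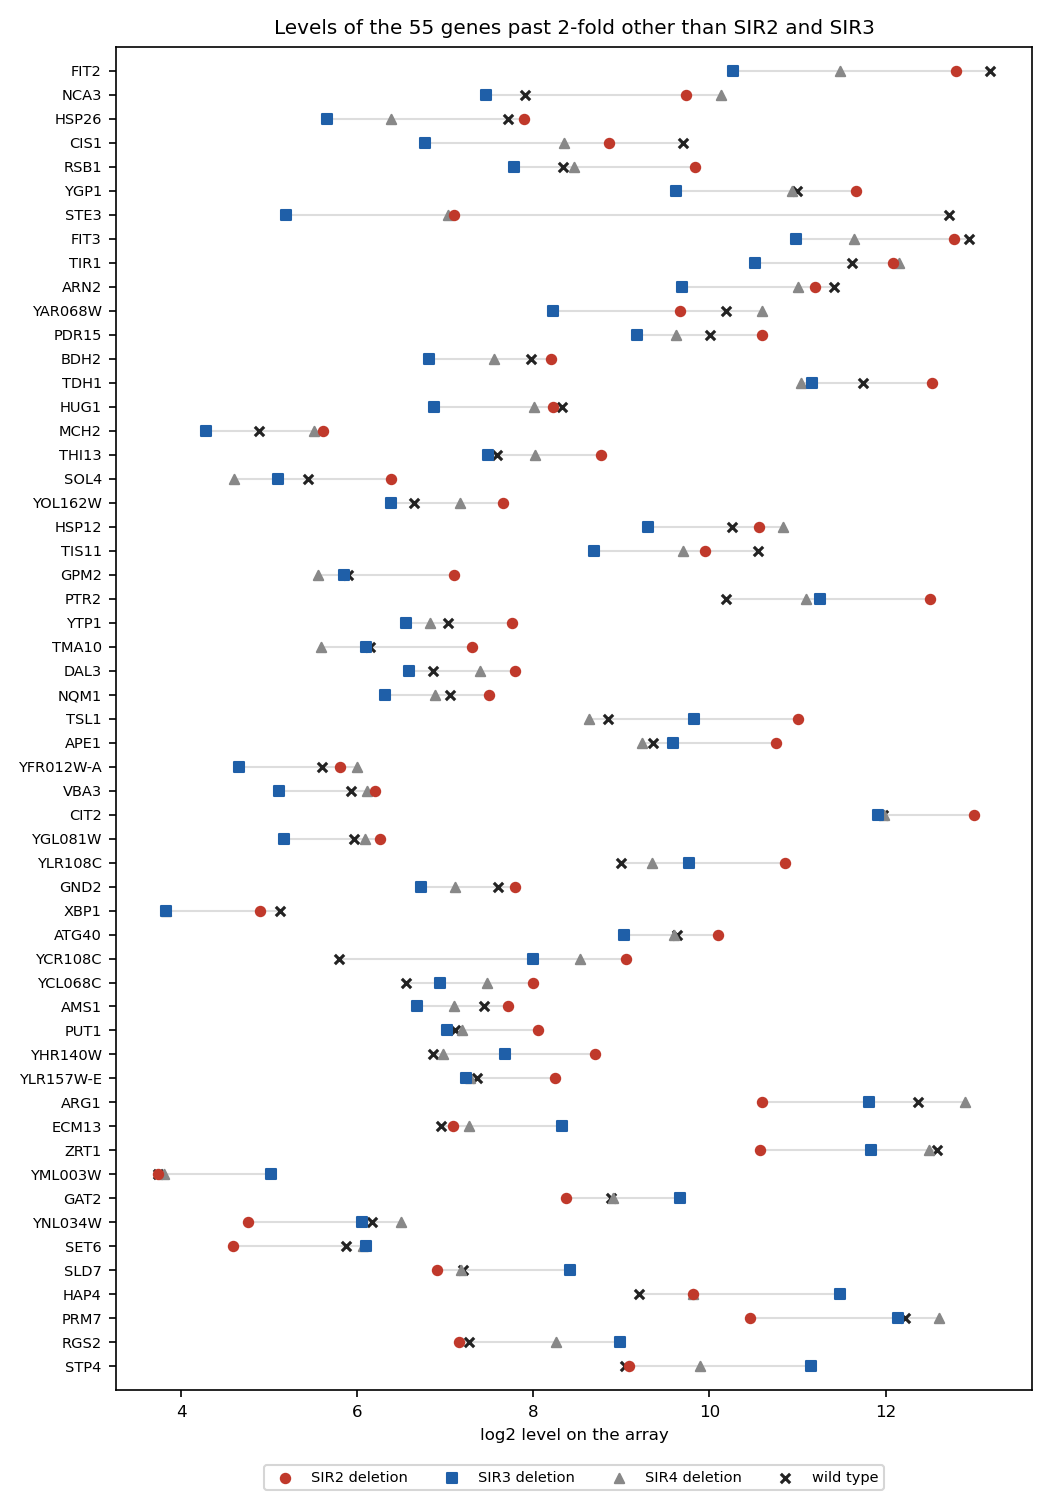
Log2 level on each of the 4 arrays (symbols) for the 55 genes past 2-fold other than SIR2 and SIR3, 1 gene a row, ordered by the difference between the SIR2 and SIR3 deletions with the highest at the top. The SIR3 deletion is the lowest array for FIT2, at 10.26, and the highest for STP4, at 11.16, while the SIR2 deletion is the highest for RSB1, at 9.83, and the lowest for ZRT1, at 10.57.

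The iron uptake list held 4 genes that were at least 2-fold higher in the SIR2 deletion than in the SIR3 deletion. Yeast starved of iron turns on this set through the activator Aft1. Of 29 measured genes 4 were called, all higher, beside 0.807% of all genes, and 24 of the 29 had a positive difference, beside 51.2% of all genes, with a list median of 0.34. FIT2, which encodes a cell wall mannoprotein that retains iron-loaded siderophores, was at 12.80 in the SIR2 deletion against 10.26 in the SIR3 deletion, with 11.49 in the SIR4 deletion and 13.19 in wild type, and its difference of 2.54 or 5.81-fold was the largest after that of SIR3. Its neighbour and relative FIT3 was at 12.78 in the SIR2 deletion against 10.98 in the SIR3 deletion, a difference of 1.80. ARN2, a siderophore transporter gene, was at 11.20 in the SIR2 deletion against 9.69 in the SIR3 deletion. TIS11, whose product speeds the decay of mRNAs for iron-using proteins when iron is scarce, was at 9.94 in the SIR2 deletion against 8.69 in the SIR3 deletion. These 4 genes had their lowest level of the 4 arrays in the SIR3 deletion and their highest in wild type.

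The members that were not called mostly lay on the same side. FIT1, ARN1 and ENB1, genes of siderophore retention and uptake, had differences of 0.91, 0.90 and 0.85. The high-affinity oxidase and permease genes FET3 and FTR1 had 0.34 and 0.18. The smallest differences were those of AFT2 and FRE5, at -0.34 and -0.20, and FRE5 was below background on both arrays. AFT1 itself had -0.11. The SIR3 deletion was the lowest of the 4 arrays in 22 of the 29 genes, or 75.9%, where 23.6% of all genes had their lowest level there. The low values were therefore on the side of the SIR3 deletion for most of this list.

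**Figure D3:**
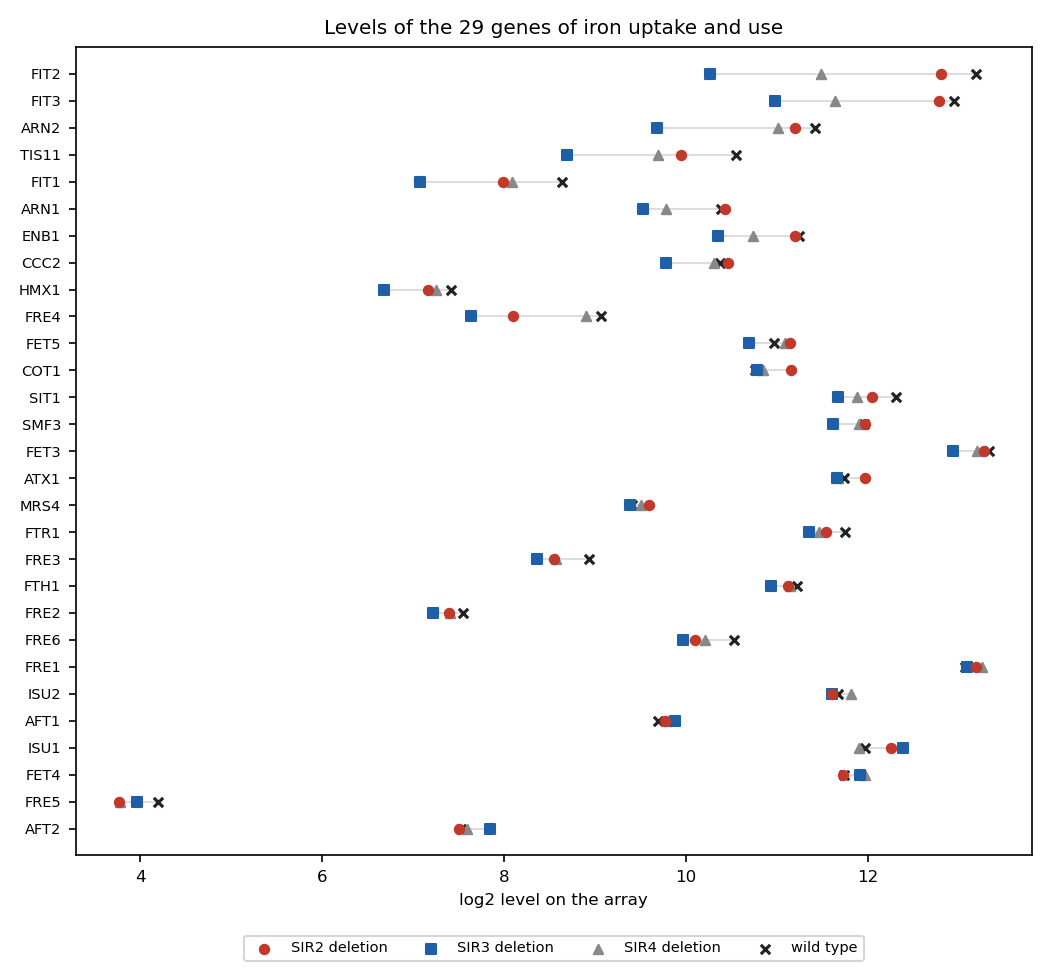
Log2 level on each of the 4 arrays for 29 genes of iron uptake and use, ordered by the difference between the SIR2 and SIR3 deletions. In the upper rows the SIR3 deletion lies at the left end, with 10.26 for FIT2 and 10.98 for FIT3, and AFT1 near the bottom has all its arrays between 9.69 and 9.88.

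In the stress list the called genes were again higher, but over the whole list it was the SIR2 deletion that most often lay at the edge of the 4 arrays. The general stress list, targets of the activators Msn2 and Msn4 and these 2 genes, had 6 of 31 members called, all higher in the SIR2 deletion, beside 0.807% of all genes. The median was 0.51, and 29 of 31 were above 0, beside 51.2% of all genes. HSP26, a small heat shock protein gene, was at 7.90 in the SIR2 deletion against 5.65 in the SIR3 deletion, with 6.38 in the SIR4 deletion and 7.71 in wild type, a 4.73-fold difference. YGP1, which encodes a secreted glycoprotein made in nutrient limitation, was at 11.66 in the SIR2 deletion against 9.62 in the SIR3 deletion, the SIR4 deletion being at 10.93 and wild type at 10.99. HSP12, a membrane-protecting heat shock protein gene, had 1.26, SOL4 of the pentose phosphate pathway 1.28, NQM1, a relative of transaldolase, 1.19 and the repressor gene XBP1 1.07. XBP1 was below background in the SIR3 deletion, and with values raised to background it had 0.50. The regulators were not called, with MSN2 at 0.29 and MSN4 at -0.29.

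In 23 of the 31 general stress genes, or 74.2%, the SIR2 deletion was the highest of the 4 arrays, against 30.5% of all genes. In 12, or 38.7%, the SIR3 deletion was the lowest, against 23.6%. Among the called members the SIR2 deletion was highest for HSP26, YGP1, SOL4 and NQM1. The SIR3 deletion was lowest for HSP26, YGP1, HSP12 and NQM1, and HSP12 was highest in the SIR4 deletion, at 10.83. GLK1, which encodes glucokinase, was at 11.90 in the SIR2 deletion, beside 10.94 in the SIR3 deletion, with 9.69 in the SIR4 deletion and 10.33 in wild type, so both deletions of the pair were above the other arrays. DDR2 was lower in both than in wild type, at 6.77 in the SIR2 deletion, beside 6.002 in the SIR3 deletion, against 8.19 in wild type.

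Trehalose and glycogen are the storage sugars that accumulate with the stress response. All 9 trehalose genes had a positive difference, beside 51.2% of all genes, with a median of 0.45. All 9 were highest in the SIR2 deletion, beside 30.5% of all genes, and 1 was called, beside 0.807%. TSL1, a subunit of trehalose synthase, was the called member, at 11.004 in the SIR2 deletion against 9.82 in the SIR3 deletion, with 8.64 in the SIR4 deletion and 8.84 in wild type. Both strains of the pair were thus above the other arrays, and the SIR2 deletion more so. ATH1, which encodes a trehalase, and PGM2, a phosphoglucomutase gene, had 0.64 and 0.61. None of 11 glycogen genes was called, with a median of 0.27, and GSY1, a glycogen synthase gene, had the largest difference at 0.88.

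Among 26 chaperone genes HSP26 and HSP12, which are also in the general stress list, were the called members, beside 0.807% of all genes. The list median was 0.16 and 21 of 26 were above 0, beside 51.2% of all genes. HSP42 and SSE2 had 0.77 and 0.72, and HSP30 had the lowest value at -0.63. The disaggregase gene HSP104 was at 12.23 in the SIR2 deletion, beside 11.87 in the SIR3 deletion, with 10.41 in the SIR4 deletion and 10.67 in wild type. Among genes of the Hsp90 and Hsp70 classes, HSP82 had 0.36, and HSC82 and SSA2, both near the top of the range of the arrays, -0.01 and 0.07.

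For 15 called genes a related gene of like function, chosen after the values were seen, was set beside them. None of the 15 relatives was called, beside 1.05% of all genes. They ran from -0.27 to 0.90, with 11 within 0.25 of 0, beside 70.3% of all genes. The relatives were thus about as often near 0 as genes at large. The 4 beyond 0.25 were ARN1 at 0.90, SPS100 at 0.62, PDR5 at 0.41 and ZRT2 at -0.27. TDH1, a gene for the glycolytic enzyme glyceraldehyde-3-phosphate dehydrogenase, was at 12.53 in the SIR2 deletion against 11.17 in the SIR3 deletion, with 11.04 in the SIR4 deletion and 11.75 in wild type. The control probe sets for 3 parts of TDH1 differed by 1.44, 2.10 and 2.16, and another, which can match several sequences, by 0.03. Its relative TDH3 was at 15.201 in both strains, the highest level on either array, and GPM1, the relative of the called GPM2, was at 15.03 in the SIR2 deletion, beside 15.001 in the SIR3 deletion. At such levels the arrays cannot show whether these 2 relatives changed. GND2 and SOL4 of the pentose phosphate pathway had 1.07 and 1.28, while their relatives GND1 and SOL3 had -0.05 and 0.07. GND2 was not called when quantile normalization was repeated, nor SOL4 with values raised to the 99th percentile background. NQM1 had 1.19 and the transaldolase gene TAL1 0.09, BDH2 had 1.38 and the butanediol dehydrogenase gene BDH1 0.14, and TPS3, the relative of TSL1, had 0.18. In the list of glycolysis and fermentation TDH1 was the called member of 22, with a median of 0.04 and GLK1 next at 0.96, at median levels of 14.28 in the SIR2 deletion and 14.24 in the SIR3 deletion.

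The citrate synthase genes CIT2, of peroxisomes, and CIT1, of mitochondria, differed by 1.09 and 0.23. CIT2, a marker of the signal from mitochondria to the nucleus known as the retrograde response, was at 13.01 in the SIR2 deletion and between 11.92 and 11.99 on the other arrays. CIT1 was at 11.96 in the SIR2 deletion, beside 11.73 in the SIR3 deletion. Of 25 genes of the citric acid cycle CIT2 was the called member, with a list median of 0.11. IDH1, IDH2 and ACO1, which catalyse the first steps after citrate and are known targets of the same signal, had 0.42, 0.45 and 0.41, and PYC1, a pyruvate carboxylase gene, 0.65. At the other end SDH1 and MDH2 had -0.38 and -0.37.

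The multidrug resistance list also had its called members on the higher side in the SIR2 deletion. Pdr1 and Pdr3 are activators of membrane transporters that export drugs and lipids. Of 16 measured genes 3 were called, all higher, beside 0.807% of all genes, 15 were above 0, beside 51.2%, and the median was 0.41. RSB1, needed for the export of sphingolipid long-chain bases, was at 9.83 in the SIR2 deletion against 7.78 in the SIR3 deletion, with 8.47 in the SIR4 deletion and 8.33 in wild type, a 4.14-fold difference that put the SIR2 deletion above every other array. CIS1, which acts in the response to stalled import of mitochondrial proteins, was at 8.85 in the SIR2 deletion against 6.76 in the SIR3 deletion, the SIR4 deletion being at 8.35 and wild type at 9.70. Here the SIR3 deletion was the low array. PDR15, a transporter gene, was at 10.59 in the SIR2 deletion against 9.17 in the SIR3 deletion. The main drug pump gene PDR5 had 0.41 and the regulator genes PDR3 and PDR1 had 0.56 and 0.42. PDR10 had the lowest value at -0.04. In 13 of the 16 genes the SIR3 deletion was the lowest array, beside 23.6% of all genes, and in 8 the SIR2 deletion was the highest, beside 30.5%.

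Of 28 genes of nitrogen catabolism 3 were called, all higher in the SIR2 deletion, beside 0.807% of all genes, with 24 above 0, beside 51.2%, and a median of 0.29. PTR2, the transporter of small peptides, was at 12.51 in the SIR2 deletion against 11.26 in the SIR3 deletion, with 11.09 in the SIR4 deletion and 10.18 in wild type. DAL3, an enzyme of allantoin breakdown, had 1.20 and the proline oxidase gene PUT1 1.03, and PUT1 was not called when quantile normalization was repeated. OPT2 had the lowest value at -0.56. CAR2 of arginine breakdown, a close neighbour of SIR3, was at 11.94 in the SIR2 deletion, beside 11.22 in the SIR3 deletion, the SIR4 deletion being at 10.48 and wild type at 9.99. Outside the lists, APE1 and AMS1, vacuolar hydrolases delivered by selective autophagy, had 1.16 and 1.04, and ATG40, a receptor for autophagy of the endoplasmic reticulum, had 1.07. These called genes were grouped after their values were seen, and no list of autophagy genes was made. AMS1 was not called when quantile normalization was repeated.

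Arginine synthesis lay on the opposite side. ARG1, the argininosuccinate synthase gene, was at 10.60 in the SIR2 deletion against 11.81 in the SIR3 deletion, with 12.90 in the SIR4 deletion and 12.37 in wild type. It was the called member of 7, beside 0.239% of all genes called lower. ARG4 and ARG3 of the same pathway had -0.65 and -0.64, and the list median was -0.25. The SIR2 deletion was the lowest array in 6 of the 7 genes, beside 33.2% of all genes. The zinc transporter gene ZRT1 was at 10.57 in the SIR2 deletion against 11.84 in the SIR3 deletion, with 12.50 in the SIR4 deletion and 12.59 in wild type. Its relative ZRT2 had -0.27, its activator ZAP1 -0.18, and no other of the 6 zinc genes was called.

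HAP4 was lower in the SIR2 deletion than in the SIR3 deletion. It encodes the activating subunit of the Hap complex, whose amount sets the expression of respiratory genes. HAP4 was at 9.82 in the SIR2 deletion against 11.48 in the SIR3 deletion, with 9.82 in the SIR4 deletion and 9.20 in wild type, a difference of -1.66, and only the SIR3 deletion was high. The other subunit genes HAP2, HAP3 and HAP5 had -0.08, -0.25 and -0.02 and the separate activator HAP1 0.08. None of 23 respiratory chain genes was called, beside 1.05% of all genes. Of the 23, 19 were below 0, beside 2650 of all 5449, with a median of -0.23. COX4 and QCR2, subunits of the last and the middle enzyme of the chain, had -0.51 and -0.41. The SIR3 deletion was the highest array in 17 of the 23, or 73.9%, where 17.9% of all genes were highest there. CYC7 and COX5B had the largest values, at 0.73 and 0.43. They encode the forms of cytochrome c and of a cytochrome oxidase subunit that cells prefer when oxygen is low. None of 16 ATP synthase genes was called, with a median of -0.11 and 14 below 0, beside 2650 of all 5449. The respiratory chain genes had a median level of 11.75 in the SIR3 deletion and 11.45 in the SIR2 deletion. In the SIR4 deletion, where HAP4 was at 9.82, their median level was 11.65, and in wild type 11.14. The part of HAP4 in these levels was not tested.

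**Figure D4:**
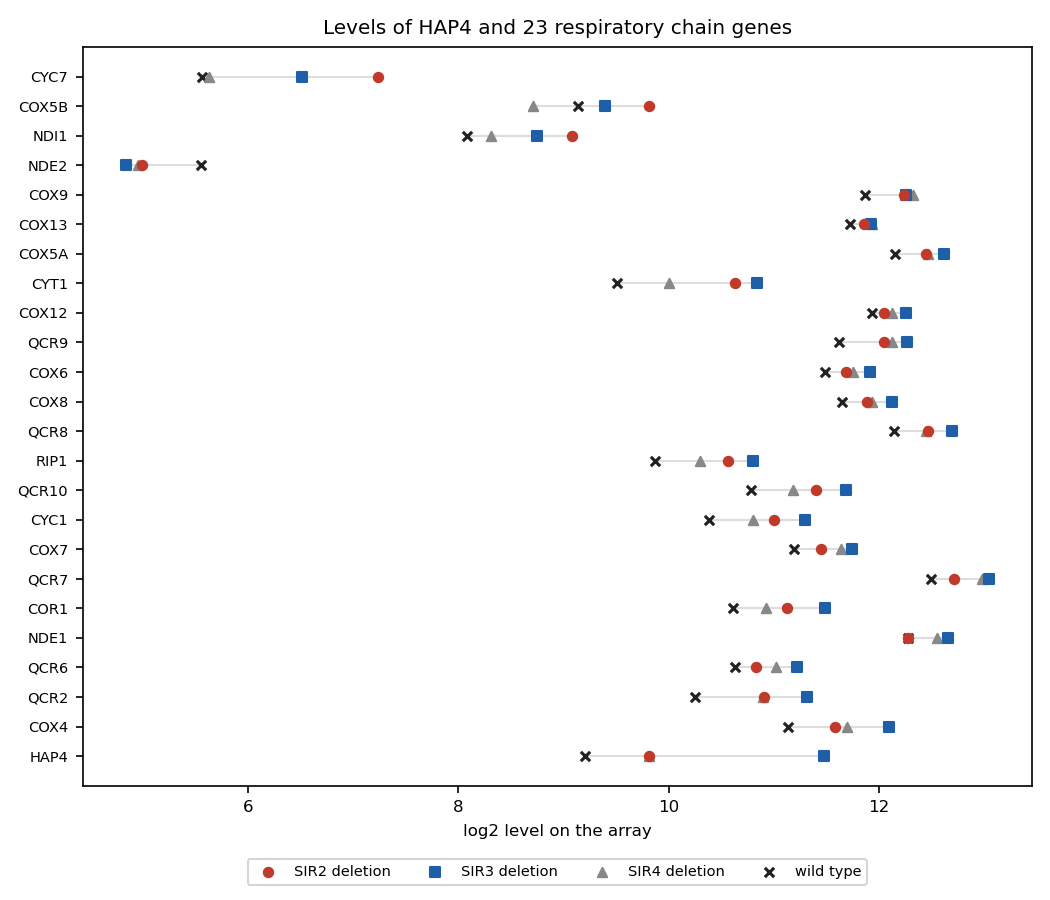
Log2 level on each of the 4 arrays for HAP4 and 23 respiratory chain genes, ordered by the difference between the SIR2 and SIR3 deletions. HAP4, in the bottom row, is at 11.48 in the SIR3 deletion and between 9.20 and 9.82 on the other arrays, and CYC7, in the top row, is highest in the SIR2 deletion, at 7.24.

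The remaining genes that were lower in the SIR2 deletion included regulators. STP4, which encodes a zinc finger protein, was at 9.09 in the SIR2 deletion against 11.16 in the SIR3 deletion, with 9.90 in the SIR4 deletion and 9.04 in wild type. Its difference of -2.07 was the largest decrease after SIR2 by the brightest probe set of each gene, although the SIR2 deletion was close to wild type. RGS2, a negative regulator of glucose signalling through cAMP, was at 7.16 in the SIR2 deletion against 8.99 in the SIR3 deletion, the SIR4 deletion being at 8.26 and wild type at 7.27. SLD7, a factor for the start of DNA replication, had -1.51, SET6, a SET domain protein gene, -1.51 and GAT2, a GATA-type zinc finger gene, -1.30. SET6 was low in the SIR2 deletion, at 4.58, and lay between 5.87 and 6.09 on the others, and it was not called with values raised to the 99th percentile background. ECM13 had -1.24. YNL034W had -1.30 from its brighter probe set, which can match several sequences, and -0.61 from the other, and YML003W, below background on all arrays but that of the SIR3 deletion, had -1.28, or -0.70 with values raised to background.

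Other genes that were higher in the SIR2 deletion had roles in the cell wall and elsewhere. NCA3, a member of the SUN family of cell wall proteins, was at 9.73 in the SIR2 deletion against 7.46 in the SIR3 deletion, with 10.13 in the SIR4 deletion and 7.90 in wild type. Its 4.84-fold difference thus set the SIR2 and SIR4 deletions against the other arrays. TIR1, a mannoprotein gene of cold and low oxygen, was at 12.08 in the SIR2 deletion against 10.51 in the SIR3 deletion, the SIR4 deletion being at 12.16 and wild type at 11.62. TIR1 and YGP1 were the called members of 27 cell wall genes, whose median was 0.05. HUG1, a checkpoint-controlled inhibitor of ribonucleotide reductase, was at 8.22 in the SIR2 deletion against 6.87 in the SIR3 deletion, the SIR4 deletion being at 8.004 and wild type at 8.32. It was the called gene of 13 in the DNA damage list, whose median was 0.13. TMA10, a protein found with ribosomes, had 1.20, and THI13 of thiamine synthesis 1.28, from a probe set that can match several sequences.

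Genes of ribosome assembly lay mostly below 0 without a single call. None of 89 ribosome biogenesis genes passed 2-fold, but 87 of 89 were lower in the SIR2 deletion, beside 2650 of all 5449, with a median of -0.34 beside 0.00 for all genes. MAK16, an assembly factor of the large subunit, was at 9.91 in the SIR2 deletion against 10.45 in the SIR3 deletion, with 10.58 in the SIR4 deletion and 10.66 in wild type. The SIR2 deletion was the lowest of the 4 arrays in 86 of the 89, or 96.6%, where 33.2% of all genes were lowest there. The genes of RNA polymerases I and III, which make ribosomal and transfer RNA, had a median of -0.20, with 20 of 20 below 0 and 19 lowest in the SIR2 deletion. The ribosomal protein genes had medians closer to 0. The 127 genes of the cytosolic ribosome ran from -0.11 to 0.06 at median levels of 14.59 in both strains, near the top of the range of the arrays, and the 66 of the mitochondrial ribosome had a median of -0.09. The 7 control probe sets for ribosomal RNA ran from -0.23 to 0.30, with 5 of 7 above 0, in RNA primed for 3 prime labelling.

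**Figure D5:**
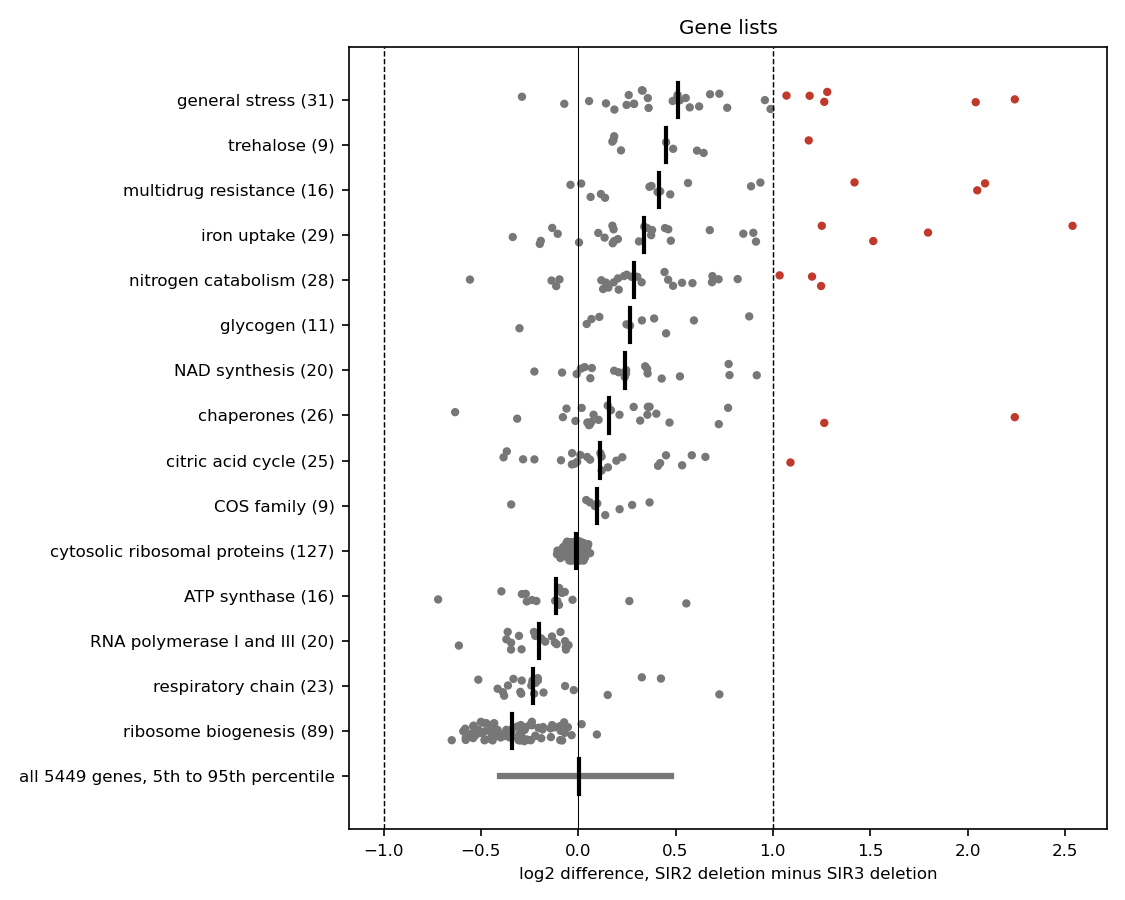
Log2 difference, SIR2 deletion minus SIR3 deletion, for the members of 15 gene lists, with the number measured in brackets, where each point is a gene, red points passed 2-fold and black bars are list medians. The bottom row gives the 5th to 95th percentile of all genes, from -0.40 to 0.47, and the list medians run from 0.51 for general stress to -0.34 for ribosome biogenesis.

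None of the 3 measured genes of the silent mating loci passed 2-fold between the strains. HMRA1, the a1 gene of the silent locus HMR, was at 9.38 in the SIR2 deletion, beside 9.01 in the SIR3 deletion, with 9.80 in the SIR4 deletion and 2.87, below background, in wild type. HMLALPHA1 was at 6.80 in the SIR2 deletion, beside 6.58 in the SIR3 deletion, with 6.91 in the SIR4 deletion and 11.51 in wild type. HMRA2 was at 10.65 in the SIR2 deletion, beside 10.80 in the SIR3 deletion, with 10.85 in the SIR4 deletion and 11.15 in wild type. Both genes were thus lower in all deletions than in wild type, the opposite of HMRA1. Their probe sets can match several sequences, and the active locus MAT of an alpha cell carries the same alpha1 sequence as HML. The telomere-proximal COS12 was at 10.62 in the SIR2 deletion, beside 10.41 in the SIR3 deletion, with 10.28 in the SIR4 deletion and 5.04 in wild type. None of 9 COS genes was called, with a median of 0.10. The GTP synthesis gene IMD2 was at 11.47 in the SIR2 deletion, beside 11.61 in the SIR3 deletion, with 11.19 in the SIR4 deletion and 9.65 in wild type. Its probe set can match several sequences. None of 16 purine and GTP synthesis genes was called.

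The haploid-specific genes had a median level of 6.63 in the SIR2 deletion, beside 6.64 in the SIR3 deletion, against 10.69 in wild type. Of the mating genes beyond PRM7, 1 passed the limit. STE3, which encodes the receptor for a-factor and is specific to alpha cells, was at 7.10 in the SIR2 deletion against 5.19 in the SIR3 deletion, with 7.03 in the SIR4 deletion and 12.72 in wild type. The other 4 alpha-specific genes differed by -0.15 to 0.24, so STE3 was the 1 member past the limit. MF(ALPHA)1 was below background in both strains. None of 7 a-specific and 12 haploid-specific genes was called, with medians of 0.14 and 0.16, the second of which was -0.01 with values raised to background. NEJ1, the regulator of end joining, had 0.94. FUS1, a cell fusion gene, was at 5.53 in the SIR2 deletion, beside 4.55 in the SIR3 deletion, a difference of 0.97 just short of the limit. PRM7 was the called member of 24 pheromone response genes.

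Chromosome ends were compared by gene order, using for each end the 8 protein-coding genes farthest out in the R64 reference table. Of the 180 such genes that were measured, 8 or 4.44% were higher in the SIR2 deletion, beside 0.683% of 5269 elsewhere, and none was lower. The 2 sets differ in their probe sets, which can match several sequences for 49 of the 180 and 65 of the 5269. The 8 higher genes were YAR068W, YCL068C, VBA3, YCR108C, THI13, ARN2, MCH2 and YOL162W, of which YCL068C, VBA3 and THI13 have such probe sets. YCR108C, the outermost gene of its end, was at 9.05 in the SIR2 deletion against 7.99 in the SIR3 deletion, with 8.53 in the SIR4 deletion and 5.79 in wild type. YAR068W was at 9.66 in the SIR2 deletion against 8.23 in the SIR3 deletion, the SIR4 deletion being at 10.60 and wild type at 10.19, so here the SIR3 deletion was below wild type. The same held for VBA3, THI13, ARN2, MCH2 and YOL162W, from 9.69 against 11.41 in ARN2 to 7.49 against 7.58 in THI13. Only for YCR108C and YCL068C was the SIR3 deletion above wild type. The count of 8 was 6 when quantile normalization was repeated, with VBA3 and YCL068C lost, and 6 with values raised to the 99th percentile background, with MCH2 and VBA3 lost. Without probe sets that can match several sequences it was also 6, with THI13, VBA3 and YCL068C lost and YOL166W-A gained. The median of the 180 genes was 0.12, or 0.05 when quantile normalization was repeated over the Saccharomyces cerevisiae probe sets.

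The genes near ends also had lower levels than most, with a median of 7.98 in the SIR2 deletion and 7.73 in the SIR3 deletion, and the spread of differences was wider at low levels. Within the 2 lowest of the 10 level classes, 6 of 102 outermost genes or 5.88% were higher, beside 19 of 988 elsewhere or 1.92%. Within the upper 8 classes, the counts were 2 of 78, or 2.56%, and 17 of 4281, or 0.397%. The part of level in the share near ends was not tested further.

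The sirtuin relatives, the nucleolar silencing genes and the enzymes of NAD synthesis were not called, apart from SIR2. HST1 to HST4 differed by -0.11, 0.16, 0.13 and -0.02, in that order. Of 8 genes of nucleolar silencing, FOB1, which encodes the replication fork barrier protein, had the lowest value at -0.33 and NET1, the anchor of Sir2 in the nucleolus, -0.22. Of 20 genes of NAD synthesis none passed 2-fold, and 17 were above 0, beside 51.2% of all genes, with a median of 0.24. The enzymes of the pathway from tryptophan led, with BNA2 at 0.92, BNA5 at 0.78 and BNA1 at 0.77. BNA2, the first enzyme of that pathway, was at 6.75 in the SIR2 deletion, beside 5.84 in the SIR3 deletion, with 6.52 in the SIR4 deletion and 6.60 in wild type. PNC1, the nicotinamidase gene, was at 11.96 in the SIR2 deletion, beside 11.53 in the SIR3 deletion, the SIR4 deletion being at 9.89 and wild type at 9.85, so that both strains of the pair had it well above the other arrays. NPT1 had the lowest value of the list at -0.22.

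Most lists showed no call. Of the 52 lists 33 had no member past 2-fold, where 1.05% of all genes were past it. At that share a short list would often have no call. Among these 33 the ergosterol list had 21 of 23 genes above 0, beside 51.2% of all genes, with a median of 0.17. The PAU list had 13 of 13 above 0 with a median of 0.26, from probe sets of which 10 can match several sequences. The phosphate list had 12 of 15 below 0, beside 2650 of all 5449, with a median of -0.07. All 10 genes of daughter cell separation were also below 0, with a median of -0.13. The histone genes had a median of -0.08, the cyclins -0.05 and the hexose transport genes 0.01, and none of 19 oxidative stress genes was called, with a median of 0.05. No list lower than that of ribosome biogenesis was found among the 52. Just inside the limit lay YLR157W-E at 1.01 and YHR140W at 1.02, and just outside it YDR042C at 0.998 and YLR156W at 0.996. Among the lower genes ARG1 was the last inside at -1.21, and YLR297W the first outside at -0.998.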

How the data were processed

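Total RNA of 4 strains was measured on 1 array each, from 200 ng of RNA with a 3 prime labelling kit per the labels. The authors deposited log2 values for each probe set, made by RMA, as stated per the submitters' processing notes. This method subtracts background, brings the arrays to one distribution and combines the probes of a set, so a shift shared by all genes is not visible. Neither its version nor its settings are given in the sources used here.

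Of 10928 probe sets, 7244 had 1 symbol in the platform annotation, 1 had several and 3683 had none. Gene identifiers matched 5498 probe sets to 5449 genes of the R64 table, and 1746 named probe sets were of another yeast. Where a gene had several probe sets (47 genes) the brightest was used. Background was set per array at the level that 95 percent of the other yeast's probe sets lay under. A fold from a level below it uses that background instead and is written "at least". For 114 genes the probe set can match several sequences by its suffix.

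Differences were computed with Python 3.11.15, pandas 2.3.3 and NumPy 2.4.6 and drawn with Matplotlib 3.10.9, and the calculation was tested on simulated data. No test was run. The members, lists and rules were chosen with earlier results of these data known. By rule, the named genes were the SIR genes and 5 neighbours a side, the 20 largest and 20 smallest differences above background on at least 1 array, the called members and the 2 highest and 2 lowest of each list, the called genes near ends and the 5 on each side of the limit. Any further gene named was picked with its value already seen. Alternatives tried were other fold limits, backgrounds, scalings, probe set rules and end widths. Promoter motifs were not analysed here.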

Additional observations from a re-analysis of the deposited data

Results flagged for a closer look

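Some probe sets outside the comparison, without a gene name in the annotation used here, were at least 2-fold above wild type and above background in the SIR2 or SIR3 deletion. There were 8 among 3470 unnamed probe sets, and the larger of their 2 differences from wild type was 1.07, 1.13, 1.39, 1.52, 2.11, 2.40, 2.87 and 3.02. The probe set with 1.52 also passed 2-fold within the pair, with a level of 11.05 in the SIR2 deletion against 9.72 in the SIR3 deletion. A further unnamed probe set passed 2-fold within the pair, with 10.21 in the SIR2 deletion against 8.99 in the SIR3 deletion.

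Of the 47 reporter probe sets, which are for sequences other than the genes of the reference table, 1 had 14.59 in the SIR2 deletion and 14.60 in each of the SIR3 and SIR4 deletions, against 2.96 in wild type, a difference of 11.63. Another 6 lay between 7.39 and 13.24 in the SIR2 deletion, against 7.44 to 12.76 for the SIR3 deletion, 2.49 to 3.53, below background, for the SIR4 deletion and 7.48 to 13.02 for wild type. Of these 6, 1 differed at least 2-fold within the pair, by 1.15. By their identifiers most of the 6 come from the same source sequence, so they are not 6 separate observations.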

How the results depend on the processing

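With 1 array a strain the differences have no replicate error. The counts of 44 higher and 13 lower genes became 181 and 78 at a 1.5-fold limit and 9 and 5 at a 3-fold limit. The 8 higher genes among the outermost 8 of each chromosome end became 21 and 0 at these limits, and 5 with the outermost 4 genes, a choice made after seeing the data, as were the outermost 12. Repeating quantile normalization gave 35 higher and 16 lower genes, of which 35 and 13 were among the main calls, and raising values to the 99th percentile background gave 38 and 10. Under that background the difference of YML003W changed sign, to 0.021. Centring, leaving out or raising genes below background, leaving out shared probe sets and averaging probe sets gave 41 to 47 higher and 12 or 13 lower genes. Over 7 such alternatives the list medians other than that of the deleted genes moved by up to 0.193, which is more than many of the medians themselves, and 7 of them changed sign. The haploid-specific median of 0.16 became -0.01 with values raised to background, and those of the strain markers, 0.13, and of the FLO, MAL and AAD families, 0.10, became -0.02 and just under 0 with quantile normalization repeated. The other lists that changed sign were branched-chain amino acids, cytosolic ribosomal proteins, hexose transport and sirtuins, with medians from -0.02 to 0.01. The general stress median of 0.51 was 0.36 with the 99th percentile background. Distances of 10, 20 and 30 kb were not run, since the deposited values name no genome build, and promoter motifs were not run for want of sequences. No paired analysis was possible because each strain had 1 array and no test was run.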
